A study of Homo sapiens with 18 samples.

Results

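The mRNAs described here encode 5 RNA-binding proteins that are grouped as proteins, other than SBP2, reported to bind SECIS elements: the ribosomal protein RPL30, nucleolin (NCL), the helicase EIF4A3, ELAVL1 (HuR) and CELF1 (CUGBP1). They were chosen by Ensembl ID, ENSG00000156482, ENSG00000115053, ENSG00000141543, ENSG00000066044 and ENSG00000149187 in that order, and all 5 of 58676 IDs in the deposited count table were present and passed the low-count filter. What was measured is the mRNA of each gene in lysates and in Flag precipitates. The data hold no measurement of the encoded proteins, of their binding to RNA, or of their amounts.

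A SECIS element is a stem-loop in the mRNA of a selenoprotein that allows a UGA codon to be read as selenocysteine instead of stop. SBP2 binds the element through an L7Ae-type RNA-binding domain and brings the selenocysteine-specific elongation factor, with its tRNA, to the ribosome. RPL30, a protein of the large ribosomal subunit, has a related fold and has been described as competing with SBP2 for the element. Nucleolin, an abundant protein of the nucleolus, and eIF4A3, a DEAD-box helicase of the exon junction complex, have been described as SECIS binders that favour and hinder, respectively, the translation of subsets of selenoproteins. ELAVL1 binds AU-rich and U-rich elements and stabilises many mRNAs, and CELF1 binds GU-rich elements and acts in splicing and mRNA decay. None of the 5 encodes a selenoprotein.

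RNA immunoprecipitation sequencing (RIP-seq) compares the RNA recovered with a tagged protein with the RNA of the starting lysate, called the input. The cells, HEK293T, derive from human embryonic kidney and were transiently transfected with a Flag vector (the control), with Flag-SBP2, or with Flag-SBP2 and given 100 nM sodium selenite 4 h later; no control with selenite and vector is among the groups. Lysates were taken at 48 h, and 4 mg of protein was incubated for 5 h with anti-Flag magnetic beads, which were washed at 300 mM and then 500 mM KCl. Each of the 3 treatments has input and RIP libraries of 3 biological replicates, which makes 6 groups and 18 libraries. SBP2 was overexpressed from a plasmid in every SBP2 group, and the labels do not say whether the replicates were transfected on separate days.

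Input libraries held 15.2 to 22.2 M counts (1 M is 1000000) and RIP libraries 20.0 to 29.9 M, with 22712 to 24965 IDs detected per library. The 5 mRNAs had between 1559 and 61315 counts in each library, which corresponds to a counting error of 2.53% for the smallest and 0.404% for the largest. Levels are counts per 1000000 counts (CPM) after TMM scaling, so they are shares of a library, and they are compared here between libraries and not between genes. The transfected gene and marker genes of the cell line were not analysed here by name, because the reference table used pairs no symbols with Ensembl IDs; the IDs of the 5 genes came with the choice of genes.

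In the inputs, the 5 mRNAs lay at similar levels in all 3 treatments. RPL30 ranged from 529.5 to 606 CPM over the 9 inputs, NCL from 1312 to 1547 CPM and EIF4A3 from 244 to 288 CPM. ELAVL1 ranged from 215 to 257 CPM and CELF1 from 99.6 to 116 CPM. Their RIP levels differed in character: RPL30 was low in every precipitate, CELF1 was above input in every precipitate, ELAVL1 stayed close to input, and NCL and EIF4A3 changed sides between the control and the SBP2 precipitates.

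**Figure D1:**
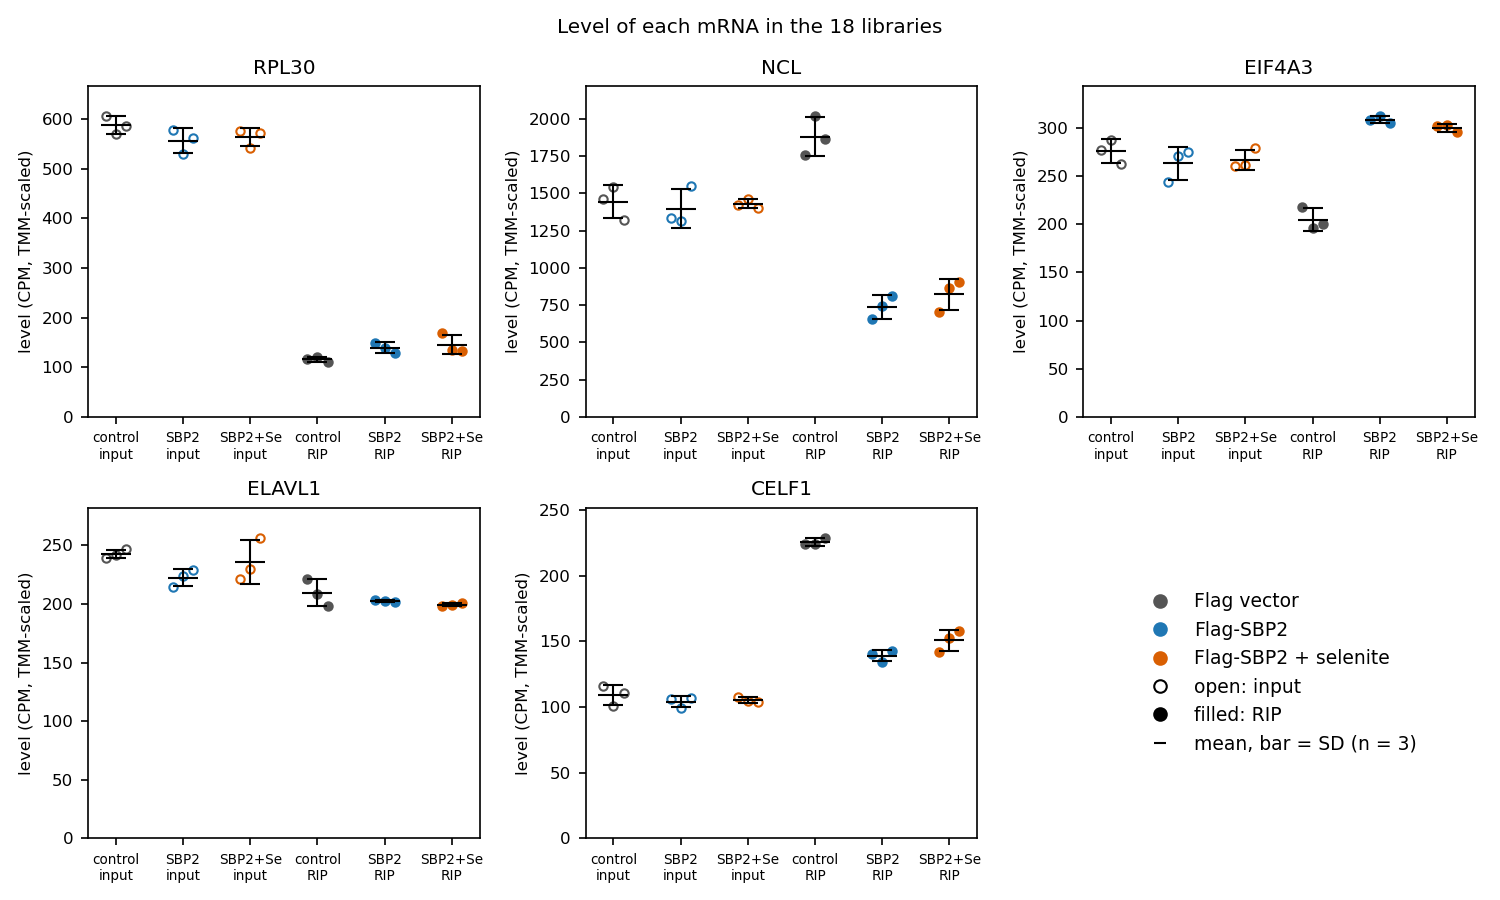
Level of each mRNA (TMM-scaled CPM, linear axis from 0) in each of the 18 libraries, grouped by treatment and fraction; points are libraries, horizontal marks are means and bars are SD (n = 3). NCL in control RIP lies at 1759 to 2018 CPM, above all inputs, whereas both SBP2 RIP groups lie at 654 to 903 CPM, below all inputs, and EIF4A3 shows the opposite order.

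The control precipitation compared each mRNA's share of the RNA from the anti-Flag beads, without Flag-SBP2, with its share of the input. Recovery, enrichment and depletion refer throughout to such shares. The amount of RNA precipitated is not among the values used here. A lower share thus need not mean that less of an mRNA was precipitated. All 5 mRNAs passed the test against input, 2 higher and 3 lower, against 71.3% of all 17678 tested genes that passed in this comparison (31.5% higher and 39.8% lower). Passing was thus the common outcome over all genes. Of all calls 44.2% were higher, against 52.6% with library size alone and 51.9% without a low-count filter, so the majority direction over all genes turned with these settings. The median of their log2 changes was -0.21 against -0.13 over all tested genes. CELF1 and NCL were higher in control RIP than in input, and RPL30, EIF4A3 and ELAVL1 were lower.

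RPL30 was the least recovered of the 5 mRNAs. Its levels in control input were 606, 571 and 587 CPM in replicates 1 to 3, and in control RIP 117, 119.9 and 110.3 CPM. The highest RIP library was thus far below the lowest input library. The change was -2.34 on the log2 scale (5.08-fold lower, SE 0.0898, edgeR adjusted p = 4.85e-17), and 4.33% of all tested genes had a lower value. The mRNA encodes a small protein of the large ribosomal subunit.

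CELF1 was the best recovered of the 5 in the control precipitates. It lay at 116, 100.9 and 110.4 CPM in control input and at 224.0, 224.3 and 229 CPM in control RIP. The groups did not overlap. The change was 1.05 on the log2 scale (2.07-fold higher, SE 0.074, edgeR adjusted p = 3.18e-12), above that of 87.9% of tested genes.

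NCL, the mRNA of nucleolin, was also higher in control RIP. It had 1464, 1544 and 1322 CPM in input and 1759, 2018 and 1862 CPM in RIP, so that every RIP library was above every input library. The change was 0.38 (log2, SE 0.0971, 1.30-fold, edgeR adjusted p = 0.00117).

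EIF4A3 and ELAVL1 were slightly lower in control RIP than in input. EIF4A3 went from 277, 288 and 263 CPM in input to 218, 196 and 201 CPM in RIP (edgeR log2 change -0.43, SE 0.0729, adjusted p = 1.08e-05). ELAVL1 went from 239, 242 and 247 CPM to 222, 209 and 198 CPM (log2 -0.21, SE 0.0721, edgeR adjusted p = 0.0113). The groups of both mRNAs did not overlap, as was the case for 71.7% of all tested genes. The ELAVL1 call did not hold with library size alone (log2 -0.027, edgeR adjusted p = 0.757), with DESeq2 size factors (-0.096, 0.243), without a low-count filter (-0.031, 0.934), with the DESeq2 test (-0.097, 0.206), within the compared groups (-0.12, 0.265), or without control RIP replicate 2 (-0.18, 0.0568) or 3 (-0.14, 0.134). Scaling by library size alone shifted the median of all genes in this comparison from -0.13 to 0.057 and gave NCL 0.57 and EIF4A3 -0.24, with the same calls.

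**Figure D2:**
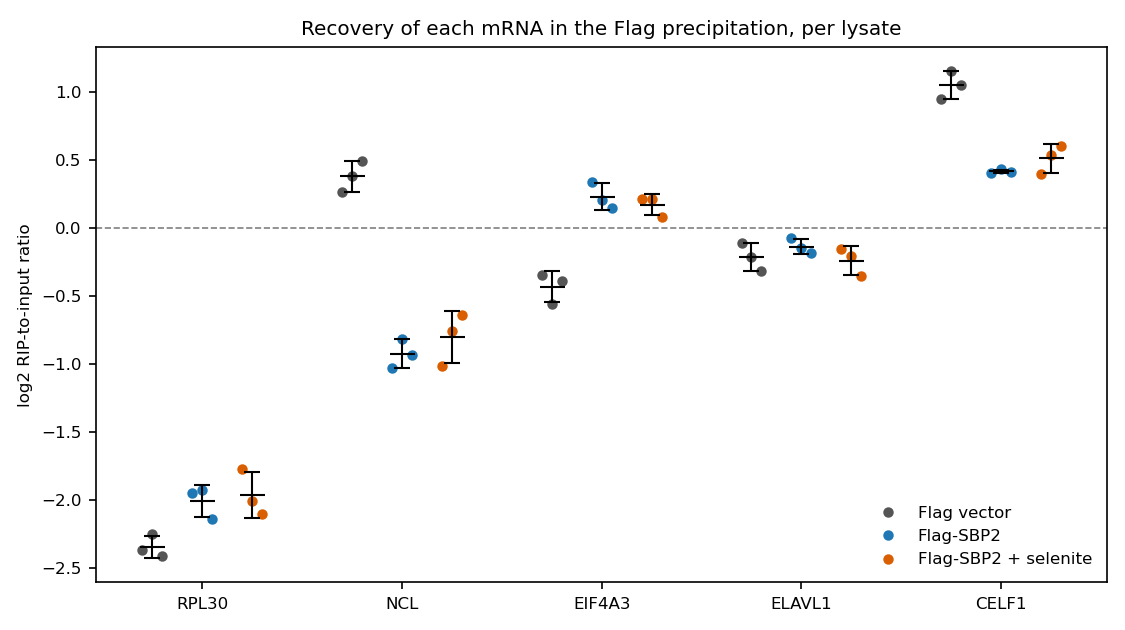
Log2 RIP-to-input ratio of each mRNA in each of the 9 lysates (difference of log2 CPM, prior count 2), coloured by treatment; horizontal marks are means and bars are SD (n = 3), and the dashed line marks equal shares in RIP and input. NCL lies above 0 in 3 of 3 control lysates and below it in 6 of 6 SBP2 lysates, EIF4A3 does the reverse, and the ranges of ELAVL1 overlap between control and both SBP2 treatments.

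With Flag-SBP2, 4 of the 5 mRNAs passed against their own input, 2 higher and 2 lower, beside 62.0% of tested genes (30.3% higher, 31.7% lower). The median log2 change was -0.14, against -0.016 over all genes. CELF1 and EIF4A3 were higher in SBP2 RIP than in input and RPL30 and NCL were lower, while ELAVL1 did not pass. Being lower than input here and in the control, as RPL30 was, applied to 26.1% of tested genes, and being higher in both, as CELF1 was, to 20.3%.

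RPL30 again lay far below input, at 578, 529.5 and 563 CPM in SBP2 input and 149.6, 139.6 and 128 CPM in SBP2 RIP. No RIP library came near the inputs. The change was -2.0 on the log2 scale (4.01-fold lower, SE 0.0887, edgeR adjusted p = 1.21e-15). NCL had 1331, 1312 and 1547 CPM in SBP2 input and 654, 746 and 812 CPM in SBP2 RIP, the reverse of its order in the control. That is a change of -0.92 (log2, SE 0.0979, 1.89-fold lower, edgeR adjusted p = 1.01e-08).

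EIF4A3 was at 244, 271 and 275 CPM in SBP2 input and at 308, 312 and 305 CPM in SBP2 RIP. All 3 precipitates were above all 3 inputs, by 0.23 on the log2 scale (SE 0.0727, edgeR adjusted p = 0.00828), a call that was lost without SBP2 input replicate 1 (0.18, edgeR adjusted p = 0.0607). CELF1 went from 105.7, 99.6 and 107 CPM to 140.3, 134 and 142.9 CPM (log2 0.42, SE 0.0737, 1.34-fold, edgeR adjusted p = 2.5e-05). ELAVL1 had 215, 224 and 229 CPM in input and 204, 202 and 201 CPM in RIP (edgeR log2 change -0.14, SE 0.0722, adjusted p = 0.105). Its groups did not overlap, as for 68.5% of tested genes, and it passed with the stricter low-count filter (-0.17, edgeR adjusted p = 0.0307).

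With Flag-SBP2 and selenite, all 5 mRNAs passed against input, 2 higher and 3 lower, beside 62.2% of tested genes (30.7% higher, 31.6% lower). The median log2 change was -0.24, against -0.0046 over all genes. The directions of RPL30, NCL, EIF4A3 and CELF1 were those without selenite. Lower than input here and in the control were 27.3% of tested genes, and higher in both were 21.9%. In all 3 treatments 24.7% were lower, like RPL30, and 19.1% higher, like CELF1.

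RPL30 had 577, 543 and 573 CPM in input and 169, 135 and 133 CPM in RIP (edgeR log2 change -1.95, SE 0.0886, adjusted p = 2.17e-15). NCL had 1423, 1462 and 1403 CPM in input and 706, 863 and 903 CPM in RIP (edgeR log2 change -0.79, SE 0.0977, adjusted p = 1.21e-07). CELF1 had 107.8, 105.0 and 103.7 CPM in input and 142, 152 and 158 CPM in RIP (edgeR log2 change 0.51, SE 0.0738, adjusted p = 1.35e-06). For each of these mRNAs, and also for EIF4A3 and ELAVL1, the RIP libraries lay wholly to one side of the inputs. So did those of 65.0% of tested genes.

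EIF4A3 and ELAVL1 differed less from input. EIF4A3 had 260.1, 261 and 279 CPM in input and 302, 303 and 296 CPM in RIP (edgeR log2 change 0.17, SE 0.0727, adjusted p = 0.044). ELAVL1 had 221, 229.8 and 257 CPM in input and 199, 199 and 201 CPM in RIP (a log2 change of -0.24 with SE 0.0723, edgeR adjusted p = 0.00548). The EIF4A3 call had the highest adjusted p among the calls of the 5 mRNAs against input. It was lost without selenite input replicate 1 (0.16, edgeR adjusted p = 0.113) or 2 (0.16, 0.108), and without selenite RIP replicate 1 (0.17, 0.0809) or 2 (0.18, 0.0736). It was also lost without a low-count filter (0.19, 0.106), with the stricter one (0.13, 0.108) and within the compared groups (0.16, 0.129). ELAVL1 did not pass without selenite input replicate 3 (-0.17, edgeR adjusted p = 0.0505).

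Whether SBP2 changed the recovery beyond the background of the beads was tested by subtracting the control's log2 change against input from that of the SBP2 treatment. Without selenite 4 of the 5 mRNAs passed, 2 enriched (EIF4A3 and RPL30) and 2 depleted (NCL and CELF1), beside 39.9% of tested genes (21.7% enriched, 18.1% depleted). With the stricter low-count filter, 6841 of 13693 genes passed. The median of the 5 was 0.076, against 0.022 over all genes. Over all tested genes 54.6% of the calls were enrichments, a share that fell to 40.8% with library size alone and to 46.0% with DESeq2 size factors. The median over all genes was -0.13 with library size alone.

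NCL had the largest change of the 5. Its log2 RIP-to-input ratio was 0.26, 0.39 and 0.49 in the 3 control lysates and -1.03, -0.81 and -0.93 in the SBP2 lysates. The ranges were separated by more than 1 log2 unit. The enrichment was -1.30 (SE 0.138, 2.47-fold lower, edgeR adjusted p = 3.36e-08), and 1.73% of all tested genes had a lower value. Few genes showed its combination of calls. Higher than input in control RIP, lower than input in SBP2 RIP and a passing difference occurred in 122 genes, 0.69% of those tested. All counts of combined calls given here were taken with TMM scaling alone. Single calls depended on the scaling: genes higher than input in control RIP rose from 5571 to 6600 with library size alone. Without the inputs, NCL in SBP2 RIP was lower than in control RIP by a log2 change of -1.35 (SE 0.0987, edgeR adjusted p = 1.88e-11), where 56.2% of genes passed.

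EIF4A3 moved the other way. Its ratio was -0.34, -0.56 and -0.39 in control lysates and 0.34, 0.21 and 0.15 in SBP2 lysates, so all 3 control lysates lay below 0 and all 3 SBP2 lysates above it. The enrichment was 0.66 on the log2 scale (1.58-fold higher, SE 0.103, edgeR adjusted p = 1.28e-05), above that of 80.1% of tested genes. Lower than input in control RIP, higher in SBP2 RIP and passing for the difference were 788 genes, 4.46% of those tested. RIP against RIP gave 0.59 (SE 0.0727, edgeR adjusted p = 1.71e-07).

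CELF1, the mRNA with the highest ratio in all 3 treatments, had a lower ratio with SBP2 than in the control but stayed above input. Its ratio was 0.95, 1.15 and 1.05 in control lysates and 0.41, 0.43 and 0.41 in SBP2 lysates. The ranges did not overlap. The enrichment was -0.63 (log2, SE 0.104, 1.55-fold lower, edgeR adjusted p = 2.51e-05), with 14.7% of tested genes lower.

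RPL30 passed with a small enrichment whose call depended on the scaling. Its ratio was -2.37, -2.25 and -2.41 in control lysates and -1.95, -1.92 and -2.14 in SBP2 lysates, separate ranges that both lay far below 0. The enrichment was 0.34 on the log2 scale (1.27-fold, SE 0.121, edgeR adjusted p = 0.0272). It did not pass with library size alone (0.19, edgeR adjusted p = 0.201), DESeq2 size factors (0.25, 0.111), no low-count filter (0.20, 0.36) or the DESeq2 test (0.25, 0.109). Nor did it pass without SBP2 input replicate 2 (0.31, 0.0711), control RIP replicate 1 (0.33, 0.0508) or 3 (0.27, 0.102), or SBP2 RIP replicate 1 (0.29, 0.0906) or 2 (0.34, 0.0516).

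ELAVL1 did not pass. Its ratio was -0.11, -0.22 and -0.31 in control lysates and -0.076, -0.15 and -0.18 in SBP2 lysates, ranges that overlap. The difference was 0.076 (log2, 95% interval -0.13 to 0.29, edgeR adjusted p = 0.599), and its sign turned with library size alone (-0.073) and DESeq2 size factors (-0.014). The interval allows at most a small enrichment or depletion, without showing that there is none. In all, 4 of the 5 mRNAs had ranges that did not overlap between control and SBP2 lysates, against 51.2% of tested genes.

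**Figure D3:**
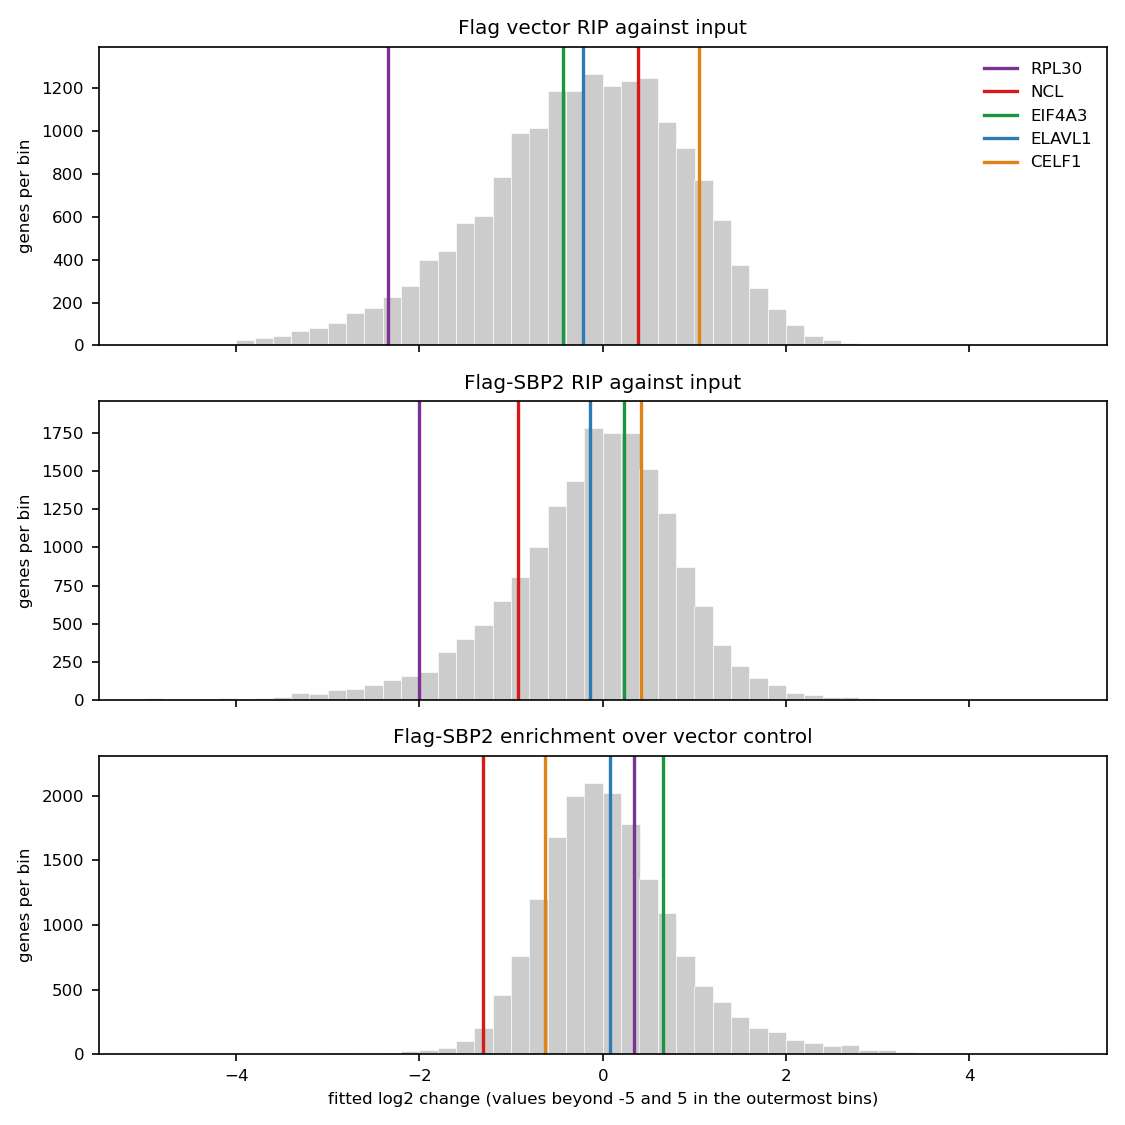
Fitted log2 changes of all 17678 tested genes (grey bars, genes per bin of 0.2) with the 5 mRNAs as coloured lines, for control RIP against input, SBP2 RIP against input and the SBP2 enrichment over control. RPL30 lies in the low tail of both RIP-to-input plots, where 4.33% and 3.72% of genes are lower, while in the enrichment plot NCL is the one in the low tail, with 1.73% of genes lower.

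With selenite the same 4 mRNAs passed in the same directions, beside 33.7% of tested genes (19.3% enriched, 14.4% depleted). The median of the 5 was -0.030, against 0.026 over all genes, of whose calls 57.4% were enrichments (42.7% with library size alone, 45.0% with DESeq2 size factors). Both enrichments share the 3 control lysates, so that their values are given side by side and not as support of each other.

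NCL was again the lowest, with ratios of -1.01, -0.76 and -0.64 in lysates with selenite. Its enrichment was -1.18 (SE 0.138, 2.26-fold lower, edgeR adjusted p = 2.46e-07), against -1.30 without selenite. Here 47 genes, 0.266% of those tested, were higher than input in the control, lower than input with SBP2 and selenite, and passed for the difference. EIF4A3, with ratios of 0.22, 0.21 and 0.084, had an enrichment of 0.60 (SE 0.103, edgeR adjusted p = 5.56e-05) against 0.66 without selenite, and its set of calls occurred in 614 genes, 3.47% of those tested. CELF1, with ratios of 0.40, 0.54 and 0.61, had -0.53 (SE 0.104, edgeR adjusted p = 0.000239) against -0.63.

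RPL30 had ratios of -1.77, -2.0 and -2.10 with selenite and an enrichment of 0.39 (SE 0.121, edgeR adjusted p = 0.0142). This call, too, was lost with library size alone (0.26, edgeR adjusted p = 0.0906), DESeq2 size factors (0.28, 0.0809), no low-count filter (0.23, 0.271) and the DESeq2 test (0.28, 0.0695), and without control RIP replicate 3 (0.32, 0.0614) or selenite RIP replicate 1 (0.27, 0.0671). ELAVL1, with ratios of -0.15, -0.21 and -0.36, had -0.030 (95% interval -0.24 to 0.18, edgeR adjusted p = 0.858). Ranges did not overlap with those of the control for the same 4 mRNAs, against 43.3% of tested genes. RIP against RIP, where 51.0% of genes passed, the same 4 passed, from -1.19 for NCL to 0.55 for EIF4A3 on the log2 scale.

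Within each treatment the 5 mRNAs could be ordered by recovery. In the control it ran from CELF1 through NCL, ELAVL1 and EIF4A3 to RPL30, with mean log2 ratios of 1.05, 0.38, -0.21, -0.43 and -2.34. With SBP2 it ran from CELF1 through EIF4A3, ELAVL1 and NCL to RPL30, at 0.42, 0.23, -0.14, -0.92 and -2.0, and the order with selenite was the same as without. Neighbours in these orders did not overlap in any of the 3 treatments. The distance from CELF1 to RPL30 was 3.39 ± 0.072 log2 units in control lysates (SD, n = 3), 2.42 ± 0.11 with SBP2 and 2.47 ± 0.28 with SBP2 and selenite. It was smaller in every SBP2 lysate, at 2.17 to 2.71, than in any control lysate, at 3.32 to 3.46. Between 1 and 2.6 log2 units from 0, fewer of all tested genes also lay with SBP2 than in the control. From -2.4 to -2.2 these were 129 against 224, and from 1.2 to 1.4 they were 361 against 584. Some bins further out held more, as from 2.6 to 2.8 with 16 against 10. The smaller distance is thus not shown to be particular to the 5 mRNAs.

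The effect of selenite on recovery was tested by comparing the log2 changes against input of both SBP2 treatments. None of the 5 passed, beside 0% of 17678 tested genes: edgeR called 0, as did DESeq2 and limma voom, while 800 genes had an unadjusted edgeR p under 0.05. Differences ran from -0.11 for ELAVL1 to 0.13 for NCL (log2, edgeR adjusted p = 0.995 for each), and the lysate ranges of all 5 overlapped, where 13.0% of genes had ranges that did not. RIP against RIP, 0.00566% of genes passed and none of the 5, although the RIP levels of EIF4A3 and ELAVL1 were lower in all 3 libraries with selenite than in all 3 without; RIP levels did not overlap in this way, in either direction, for 16.4% of tested genes. The 95% intervals reached from a 1.24-fold lower recovery, for ELAVL1, to a 1.33-fold higher one, for NCL, so changes of that size or smaller are not excluded. In simulated data for this comparison, with 17390 genes tested, 71% of planted changes of 1 log2 unit were recovered. They were planted in genes drawn at random from those past the low-count filter. This share is therefore not a rate for the 5 mRNAs.

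In the lysates themselves, none of the 5 mRNAs passed in a test between treatments. SBP2 input against control input gave log2 changes from -0.12 (ELAVL1) to -0.042 (NCL), with edgeR adjusted p from 0.52 to 0.85, beside 0.879% of 16616 tested genes. That background count of 146 genes depended on single libraries: it was 737, 47 and 48 without control input replicates 1, 2 and 3, and 25, 21 and 50 without SBP2 input replicates 1, 2 and 3. Over the other settings it ran from 104 with the stricter low-count filter to 2734 with the replicate number as a block. Same-numbered inputs were taken to be paired. The block allows for that pairing, and the fit behind the 146 genes (0.879%) does not. Of the 5 mRNAs, none passed in any of these fits, and 2500 genes had an unadjusted edgeR p under 0.05. ELAVL1 was the only one of the 5 whose libraries did not overlap between these inputs, at 239 to 247 CPM in the control and 215 to 229 CPM with SBP2, as 20.5% of genes did.

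SBP2 input with against without selenite gave 0.017 (CELF1) to 0.083 (ELAVL1), with an edgeR adjusted p of 0.9997 for each of the 5, beside 0.00602% of tested genes, which is 1 gene; 251 had an unadjusted edgeR p under 0.05, and DESeq2 called 3. No libraries of the 5 were separate between these inputs, as those of 6.45% of genes were. With the replicate number as a block, which allows for the pairing of inputs, 37 genes passed and still none of the 5. SBP2 input with selenite against control input gave -0.055 (RPL30) to -0.011 (NCL), with edgeR adjusted p from 0.872 to 0.986, beside 0.554% of tested genes. Here too the libraries of all 5 overlapped, while those of 14.9% of genes did not. Allowing for the pairing by the block raised the count of passing genes from 92 to 1130, again without any of the 5. Without the block, the count was 54 and 45 without control input replicates 2 and 3, and 29 and 23 without selenite input replicates 1 and 2. Over the 3 input comparisons, the 95% intervals of the 5 mRNAs stayed between a 1.23-fold lower and a 1.20-fold higher level. These are bulk lysates. A lower input share because fewer cells hold an RNA cannot be told apart from one because each cell holds less.

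**Figure D4:**
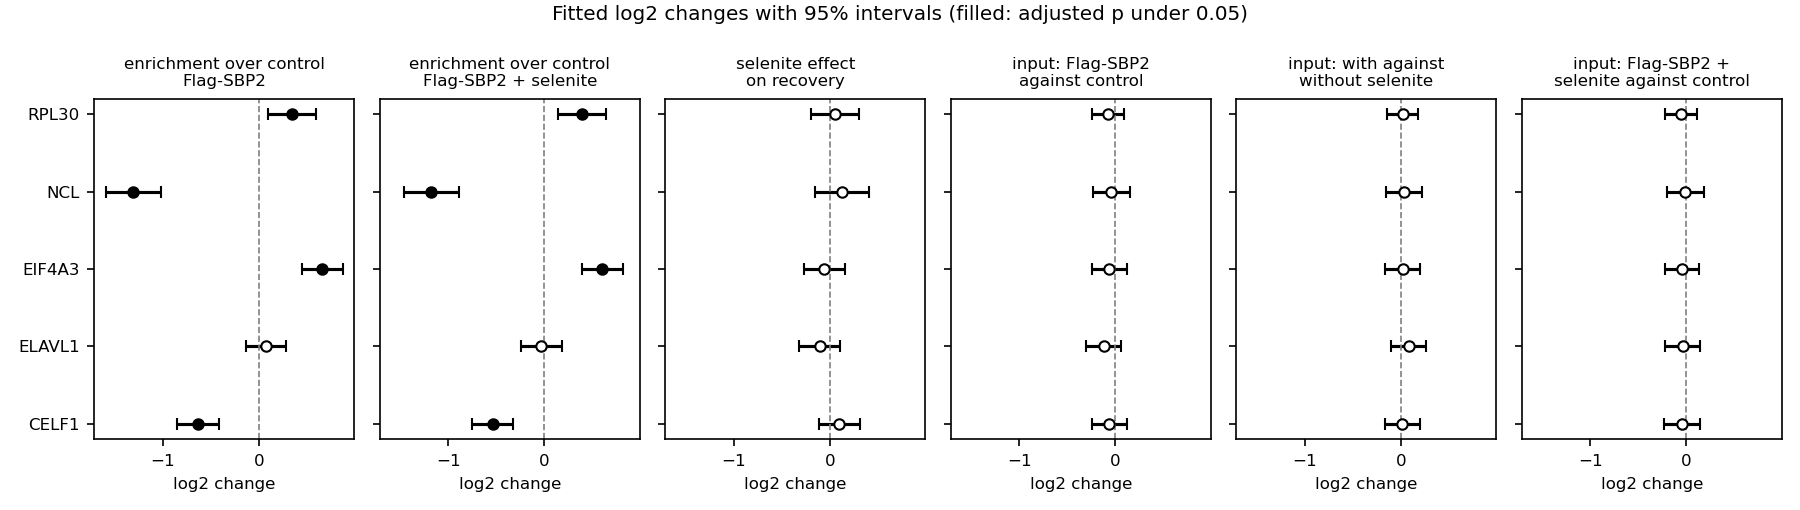
Fitted log2 changes (points) with 95% intervals (bars, not adjusted for multiple testing) of the 5 mRNAs for the enrichments over control, the selenite effect on recovery and the 3 input comparisons; filled points have an edgeR adjusted p under 0.05. The 4 filled points in each enrichment plot are RPL30, NCL, EIF4A3 and CELF1, with NCL lowest at -1.30 and -1.18, and no point is filled for the selenite effect or the inputs.

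The levels of each mRNA over the 6 groups can be ordered as follows. For NCL, control RIP (1879.8 ± 131 CPM; SD, n = 3) was above the 3 input groups, which overlapped among themselves, and these were above SBP2 RIP with selenite (824 ± 104 CPM) and without (737 ± 79.3 CPM), which overlapped. For EIF4A3, SBP2 RIP (309 ± 3.64 CPM) was just above SBP2 RIP with selenite (300.4 ± 4.15 CPM), a difference that did not pass (edgeR adjusted p = 0.976). The overlapping inputs followed, at 263 to 276 CPM on average, and control RIP was lowest (205 ± 11.9 CPM). For CELF1, control RIP (226 ± 2.87 CPM) was above SBP2 RIP with selenite (151 ± 8.15 CPM) and without (139 ± 4.39 CPM), which overlapped, and all inputs were lower, at 104 to 109 CPM on average.

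For RPL30 the inputs, at 557 to 588 CPM on average, overlapped and were above SBP2 RIP with selenite (146 ± 19.9 CPM) and without (139.0 ± 10.9 CPM), which also overlapped, and control RIP was lowest (115.8 ± 4.94 CPM). For ELAVL1 the whole order spanned only 243 ± 3.72 CPM in control input to 199.5 ± 1.08 CPM in SBP2 RIP with selenite. Neighbours in it overlapped except SBP2 RIP without selenite (202 ± 1.09 CPM) and with it, a difference that did not pass (edgeR adjusted p = 0.988).

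Many genes had a pattern close to that of RPL30 over the 18 libraries, and few one close to that of NCL or ELAVL1. Among the 13204 other genes whose log2 CPM averaged at least 1, 1488 had a Pearson correlation of 0.95 or more with RPL30 and 724 with CELF1, against 39 with EIF4A3, 3 with NCL and 1 with ELAVL1. These correlations are descriptions over libraries that fall into input and RIP sets and share their scaling. ELAVL1 differed little between groups, so the spread between replicates lowers its correlations, and its count does not show a rare pattern. The gene most like NCL, ENSG00000138668 (r = 0.989), had log2 changes against input of 0.24 in control RIP (edgeR adjusted p = 0.00685) and -0.49 in SBP2 RIP (edgeR adjusted p = 4.82e-06). The gene most like EIF4A3, ENSG00000162735 (r = 0.977), had -1.09 (edgeR adjusted p = 5.41e-11) and 0.51 (edgeR adjusted p = 1.66e-05). Both genes were picked by likeness over these same libraries, so signs like those of NCL and EIF4A3 follow from the choice.

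By RefSeq's annotation of GRCh38.p14, matched by symbol, NCL spans chromosome 2 from 231453531 to 231464484 and holds the small nucleolar RNA genes SNORA75, SNORD20 and SNORD82. EIF4A3 spans chromosome 17 from 80134369 to 80147128, ELAVL1 chromosome 19 from 7958573 to 8005641, and CELF1 chromosome 11 from 47465937 to 47565539, with the pseudogene RN7SL652P inside. RPL30, on chromosome 8, holds SNORA72, and 16 pseudogenes carry its name, against 2 for NCL, 1 for EIF4A3 and 0 for ELAVL1 and CELF1. The sources used here do not say how reads matching several places were counted or which strand setting was used, so the counts of RPL30 in particular may be shared with or lost to its copies, and this was not tested. Exons and introns cannot be told apart in counts per gene.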

How the data were processed

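The authors deposited whole-number read counts per gene (Ensembl ID) for 18 libraries, with replicates kept apart; per the submitters' processing notes, reads were processed with Trim Galore 0.6.6, STAR 2.7.6a and featureCounts 2.0.1 on GRCh38. For the annotation, the strand setting and multi-mapping reads, the entry is: not given in the sources used here. Columns were matched to samples by their labels, and the replicate numbers come from the titles. Between replicates, chi-square divided by its degrees of freedom was 4.81 to 27.3, above the value of 1 that sampling alone gives, and each library was kept as a replicate of its own.

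Counts were filtered with filterByExpr (minimum count 10, minimum total 15), leaving 17678 IDs for the full set of 18 libraries and 16616 for the inputs, scaled by TMM and tested with edgeR 4.0.16 (quasi-likelihood, two-sided, R 4.3.3). P-values were adjusted by Benjamini-Hochberg over all tested IDs, with a threshold of 0.05. Comparisons with RIP came from a single fit of the 6 group means, and those between inputs from a fit of the 9 inputs. Standard errors were derived from the test statistic, and intervals are at 95%. P-values measure the spread between these replicates only, and counting errors cover counting alone. The fits were tested on simulated data with planted changes.

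Alternatives were library size alone, DESeq2 size factors, no filter, a stricter filter (minimum 50), DESeq2 1.42.0, limma voom (limma 3.58.1), only the groups compared, replicate blocks, RIP against RIP without inputs, inputs fitted with all 18 libraries, and each library left out. Input and RIP libraries that share treatment and number come from 1 lysate, per the labels' protocols. Deviations from group means correlated at 0.0012 to 0.19 within lysates. Same-numbered inputs correlated at 0.085 to 0.22 between control and SBP2 and at 0.13 to 0.31 between control and selenite. Between both SBP2 treatments they correlated at 0.11 to 0.19. Inputs of different numbers reached at most 0.027, -0.034 and -0.023 in the same order. Numbers were taken to pair the last 2 sets of inputs, which pairs control with SBP2 inputs as well. The main fit of the inputs leaves this pairing out, and the block by number allows for it.

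All 5 genes are named whatever their values; the genes most like them were ranked by Pearson correlation over 18 libraries, and 2 IDs, those for NCL and EIF4A3, were picked for printing after their values were seen. The members and lists were chosen with earlier results of these data known. The reference table of 59792 genes carries 0 Ensembl IDs, so 0 further IDs could be named and the gene lists prepared by symbol (pathway partners, paralogs, selenoproteins, cell line markers) were not used here. No sequence is printed, since no transcript sequence was used.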

Additional observations from a re-analysis of the deposited data

Results flagged for a closer look

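The RIP-to-input change of NCL and of EIF4A3 differed between treatments by the test of the difference itself and had called, opposite signs. NCL was higher than input in the control and lower with SBP2, a difference of -1.30 on the log2 scale without selenite and -1.18 with it. EIF4A3 was lower than input in the control and higher with SBP2, a difference of 0.659 without selenite and 0.601 with it. Its calls against input with SBP2 were less firm than the difference: the one without selenite was lost without SBP2 input replicate 1 (edgeR adjusted p = 0.0607), and the one with selenite (0.044) in 4 of 6 fits with a library left out (0.0736 to 0.113) and in 3 of 9 other settings (0.106 to 0.129). The 4 values rest on the same 3 control lysates. Groups of 3 libraries were too small for a test of single outlying samples.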

How the results depend on the processing

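The depletion of NCL and CELF1 and the enrichment of EIF4A3 passed under every alternative run, with and without selenite. NCL lay between -1.45 and -1.22 without selenite and between -1.34 and -1.08 with it, EIF4A3 between 0.51 and 0.69 and between 0.44 and 0.63, and CELF1 between -0.78 and -0.58 and between -0.70 and -0.48. Of the log2 values of single mRNAs under other settings, 391 kept direction and call, 16 lost the call, 1 gained it and 12 changed sign; with a library left out these were 329, 15, 0 and 16. No value that changed sign was called. The ELAVL1 enrichment without selenite turned to -0.073 with library size alone, -0.014 with DESeq2 size factors and with the DESeq2 test, -0.067 without a filter and -0.050 for RIP against RIP. For the input with selenite against control input, NCL turned to 0.034 with library size alone, 0.0043 with DESeq2 size factors and with the DESeq2 test, 0.0073 without a filter and 0.012 with the stricter one, and ELAVL1 and CELF1 to 0.0059 and 0.00055 with library size alone. With a library left out, ELAVL1 ranged from -0.10 to 0.035 (enrichment with selenite), RPL30 from -0.069 to 0.11 (selenite effect on recovery) and NCL from -0.12 to 0.0091 (SBP2 against control input). Selenite against SBP2 input ranged from -0.015 to 0.046 for RPL30, -0.0095 to 0.11 for NCL, -0.036 to 0.051 for EIF4A3 and -0.012 to 0.038 for CELF1. Selenite against control input ranged from -0.045 to 0.041 for NCL, -0.10 to 0.011 for ELAVL1 and -0.097 to 0.0074 for CELF1. The cause of these changes was not tested.

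Counts over all genes moved by more than 1.5 times in these cases. The enrichment with selenite called 9024 genes as RIP against RIP, in place of 5956. The selenite effect on recovery called 1 gene without a filter and 1 as RIP against RIP, in place of 0. SBP2 against control input called 681 genes without a filter, 331 with DESeq2, 702 with all 18 libraries and 21 to 737 with a library left out, in place of 146. Selenite against SBP2 input called 27, 3 and 3 genes under the first 3 of these settings and 2 within the compared groups, in place of 1. Selenite against control input called 329, 206 and 359, then 32 within the compared groups, in place of 92. With a library left out this comparison called 23 to 134 genes, and 4 of these 6 fits moved by more than 1.5 times. Of that comparison's calls 55.4% were higher, against 68.6% with library size alone, 45.6% with DESeq2, 40.1% with all 18 libraries, 33.2% with the replicate number as a block and 35.8% to 95.7% with a library left out. With the replicate number as a block the 3 input comparisons called 2734, 37 and 1130 genes; the pairing, by number or by lysate, changed no call of the 5 mRNAs. With 3 libraries a group, the simulated enrichment, with 17386 genes tested, recovered 63% of changes of 1 log2 unit. These were planted in genes drawn at random, so the share is not a rate for the 5 mRNAs.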
